A study of Mus musculus with 96 samples.

Results

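Cells of E14, a mouse embryonic stem cell line, were sequenced singly and split here by the imprinted non-coding RNAs Meg3 and Rian: 9 cells with 0 counts of both genes (silent) were compared with 46 cells with at least 1 count of both (expressing). The split used the counts of Meg3 and Rian themselves in all 61 cells with deposited counts, and the other 6 cells, with counts of only 1 of the genes, were left out. All 61 cells grew in serum/LIF, a medium of serum and leukaemia inhibitory factor, and the labels give every cell as wild type on a C57BL/6 background with no allele or treatment that sets silent cells apart. The series lists 96 wells, of which 76 hold serum/LIF cells, 16 hold cells in 2i medium and 4 hold no cell, and wells without deposited counts were not analysed here. Each sample is 1 cell, the labels name no separate cultures, and p-values therefore measure only the spread between cells of 1 culture.

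Meg3, Rian and Mirg are long RNAs made from the maternal copy of the Dlk1-Dio3 domain on distal chromosome 12. They are transcribed in the same direction, are thought to form one long unit, and carry snoRNAs and a large miRNA cluster in their introns. On the paternal copy the intergenic control region upstream of Meg3 is methylated, the RNAs are off, and the protein-coding genes Dlk1, Rtl1 and Dio3 are the active ones. Loss of the maternal RNAs with gain of methylation is known from cultured mouse pluripotent stem cells, in which the state of this domain varies between lines and clones. The labelled cell type was checked against its markers: Pou5f1, a core pluripotency factor, had counts in 9 of 9 silent and 46 of 46 expressing cells, and Sox2, its partner, in 9 silent and 41 expressing cells. Of the other stem cell markers, Nanog had counts in 8 silent and 36 expressing cells. Zfp42 had them in 6 silent and 31 expressing cells, and Esrrb in 4 silent and 12 expressing cells. Levels are in CPM, counts per 1000000 of the cell's total counts after TMM scaling, which corrects totals for composition. In the lists below a marker is counted where any cell of the class has counts, so the class of 46 can show more markers by its size alone. Of 20 primitive endoderm markers, 10 had counts in silent and 18 in expressing cells. Their transcription factor genes were sparse, with Gata4 in 0 silent and 2 expressing cells, Sox17 in 0 silent and 1 expressing, and Gata6 in 1 of each class, whereas Apoe, Sparc and Lamb1, genes of secreted proteins, had counts in all 9 silent cells and in 46 (Apoe), 45 (Sparc) and 44 (Lamb1) expressing cells. Summed over the list, the lowest, median and highest level was 241, 1450.3 and 2507 CPM in silent cells and 157, 975 and 2746 CPM in expressing cells. Of 15 fibroblast markers, 8 had counts in silent and 13 in expressing cells: Thy1 was seen in 0 silent and 5 expressing cells and Col1a1 in 1 silent and 6 expressing, but Fn1 in 7 silent and 43 expressing, Vim in 7 silent and 34 expressing and Tagln in 5 silent and 36 expressing. Their summed level ran from 50.7 to 2338 CPM in silent cells and from 0.80 to 6047 CPM in expressing cells, so both classes overlapped. Of 15 neurectoderm markers 7 had counts in silent and 9 in expressing cells, with summed levels of 8.09 to 249.5 CPM in silent and 0 to 637 CPM in expressing cells and Sox1 at 0 in both. Of 12 trophectoderm markers 8 had counts in silent and 11 in expressing cells, with summed levels of 2.11 to 567.9 CPM in silent and 0 to 605 CPM in expressing cells and Elf5 at 0 in both. Of 14 markers of the 2-cell-like state 3 had counts in silent and 5 in expressing cells, and their summed level reached 50.1 CPM in silent and 17.4 CPM in expressing cells. The part of these markers in the comparisons was not tested.

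The sequences below show where the unit starts and which small RNAs lie in it. The 300 bases around the Meg3 start (RefSeq, GRCm38.p6, chr12:109540746-109541045, plus strand) are printed because a silent cell shows no counts from here to the end of Mirg. Capitals mark TGACGTCA, the palindromic cAMP response element, which reads alike on both strands and was the only motif searched.
Meg3 promoter: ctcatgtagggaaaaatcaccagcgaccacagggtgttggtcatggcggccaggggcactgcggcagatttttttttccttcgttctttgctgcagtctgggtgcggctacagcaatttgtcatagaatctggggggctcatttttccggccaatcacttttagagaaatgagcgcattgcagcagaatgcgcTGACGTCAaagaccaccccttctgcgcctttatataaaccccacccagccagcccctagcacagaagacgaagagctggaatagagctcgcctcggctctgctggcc
The motif occurred 1 time, 57 bases before the annotated start, and 1.79% of 32851 RefSeq promoter windows of the same length held it. The window held 13 CpG dinucleotides, against a median of 7 over these windows. A match of letters is a description and says nothing about a factor bound there.

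The mature miRNAs below belong to the 4 plus-strand hairpin genes with counts in at least 6 expressing cells, with a seed partner from the same cluster for 2 of them. The table of RefSeq held 57 hairpin genes between Meg3 and Mirg, 45 of them matched a row of the counts, and capitals mark the seed, bases 2 to 8.
miR-127-5p: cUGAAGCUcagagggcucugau
miR-127-3p: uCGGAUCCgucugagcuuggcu
miR-411-5p: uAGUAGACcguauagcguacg
miR-411-3p: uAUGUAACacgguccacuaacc
miR-379-3p: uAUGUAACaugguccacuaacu
miR-300-5p: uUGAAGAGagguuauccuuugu
miR-300-3p: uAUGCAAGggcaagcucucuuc
miR-3070-2-3p: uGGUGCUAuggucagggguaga
miR-3070-3p: uGGUGCUAccgucagggguaga
The seed of miR-411-3p is shared with miR-379-3p, and that of miR-3070-2-3p with miR-3070-3p. Over the 111 mature names of the interval there were 102 distinct seeds, of which 9 were shared. Counts on a hairpin gene are reads over that stretch of the precursor, and mature miRNAs were not measured.

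The counts that set the classes left a wide gap. In expressing cells Meg3 had a lowest, median and highest count of 19, 294 and 1610, and Rian had 21, 807 and 6449. No cell had a Meg3 count between 2 and 19 or a Rian count between 1 and 21. Just inside the expressing class lay the cell in well H09, with 19 counts of Meg3 and 190 of Rian, and the cell in B05, with 143 and 21. Just outside the silent class lay A02, with 0 counts of Meg3 and 1 of Rian, and A05, with 2 and 0. The other 4 cells left out had 0 counts of Meg3 and 247 (A09), 278 (D07), 140 (F02) and 210 (H01) counts of Rian, so Rian without Meg3 was seen at 140 counts or more in 4 cells, and Meg3 without Rian only at 2 counts.

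**Figure D1:**
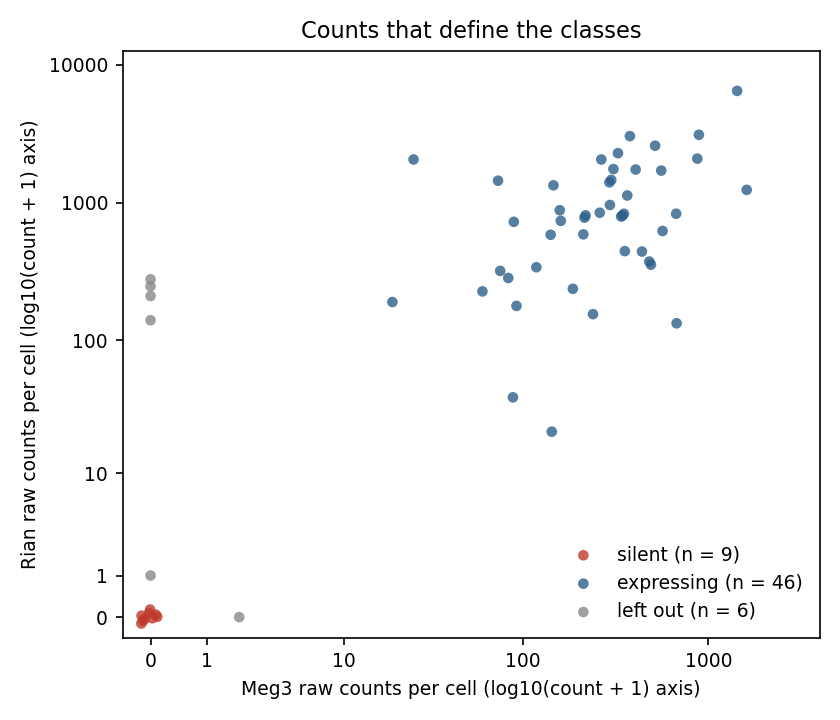
Raw counts of Meg3 (x axis) and Rian (y axis) in each of the 61 cells, on log10(count + 1) axes. Each point is 1 cell, and silent cells are spread slightly around 0 so that all 9 can be seen. The 46 expressing cells lie at or above 19 counts of Meg3 and 21 of Rian, far from the silent cells and from the grey cells left out.

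Meg3 averaged 0 CPM in silent cells and 84.0 ± 66.7 CPM in expressing cells (SD, n = 9 and 46), with a lowest expressing value of 4.16. Rian averaged 0 CPM in silent cells and 252 ± 212 CPM in expressing cells, with a lowest expressing value of 6.41. These values chose the cells and are given without a test. A limit of 3 counts per cell corresponds to 0.491 to 0.906 CPM in the 9 silent cells, below each of those lowest expressing values. Reads are not independent molecules in libraries without molecular identifiers, so this limit covers counting error only. With every cell thinned to the lowest total count, 2417702, the classes held 10 silent and 46 expressing cells, A02 joining the silent ones.

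The total counts of silent cells lay within the range of expressing cells, and some silent cells had few genes detected. Total counts ran from 3384013 to 5974802 in silent cells and from 2520670 to 6704454 in expressing cells, and the permutation test of the means gave an adjusted p of 0.381 over 6 library measures. The number of genes detected averaged 7712 ± 1275 in silent cells and 8450 ± 776 in expressing cells (SD, n = 9 and 46; permutation adjusted p = 0.145). Without the silent cell C03, which had the most genes of the 9, the difference was -935 genes and passed the threshold of 0.05 (permutation adjusted p = 0.0409). It did not pass without any other single silent cell. Without B10, which had the fewest genes, it was -438 (permutation adjusted p = 0.416). The mitochondrial share averaged 2.09% ± 0.58 in silent and 2.04% ± 0.85 in expressing cells (permutation adjusted p = 0.930).

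Chromosome 12 without Meg3, Rian and Mirg took 3.49% ± 0.22 of counts in silent cells and 3.32% ± 0.27 in expressing cells (permutation adjusted p = 0.145), with the higher mean in silent cells. Chromosome 14 took 2.76% ± 0.84 in silent and 3.06% ± 0.35 in expressing cells (permutation adjusted p = 0.145). This difference of -0.298 percentage points ran from -0.385 without the silent cell F09 to -0.118 without E01, and was -0.167 without H10. A share of chromosome 14 below 0.7 of the median was seen in 3 silent cells (E01, H03 and H10) and in 2 expressing cells. A naive pluripotency score over 16 measured marker genes had its widest gap between 0.616 and 0.995 SD, and 4 silent cells (B10, E01, H03 and H10) and 7 expressing cells lay above it. Those 4 silent cells also had the fewest genes detected of the 9, with 5317, 7033, 7441 and 6430. Silent cells were thus found on both sides of the gap, 5 below and 4 above. By plate position, 3 silent and 26 expressing cells came from rows A to D and 6 silent and 20 expressing cells from rows E to H. The part of detection, chromosome 14, pluripotency state and plate position in the comparisons that follow was not tested beyond the values given beside them.

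**Figure D2:**
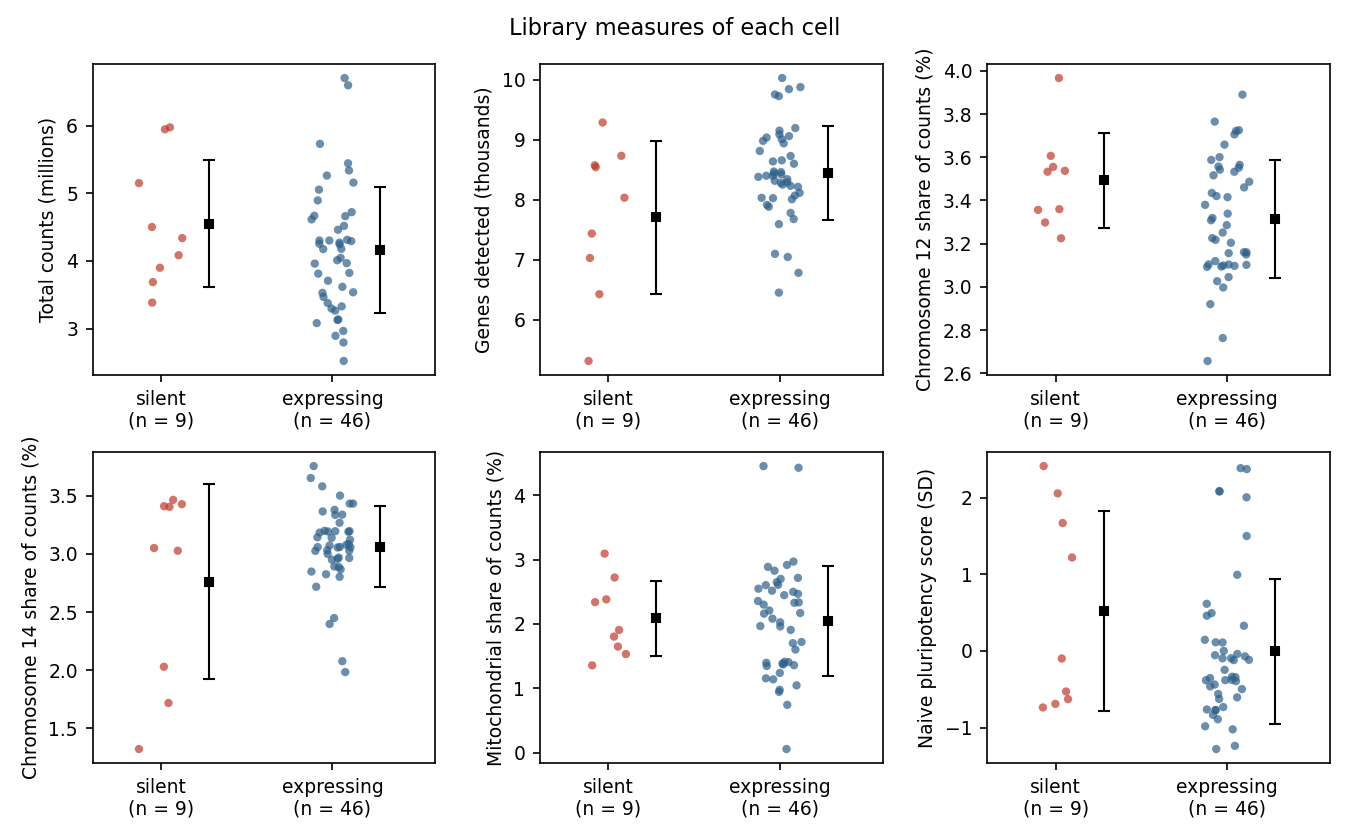
Total counts, genes detected, shares of counts from chromosome 12, chromosome 14 and mitochondria, and the naive score, for each silent (left) and expressing (right) cell. Points are cells, and squares with bars are the mean and SD. Silent cells overlap expressing cells in every panel; 3 silent cells have a chromosome 14 share of 2.03% or less, and 4 have a naive score of 1.22 or more.

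The interval from the start of Meg3 to the end of Mirg (GRCm38, chromosome 12, 109541001 to 109749460, 208.5 kb) was empty in all silent cells. It holds 77 annotated gene rows of the count table, of which 48 had counts in at least 1 expressing cell and 0 had counts in any silent cell. Summed over the interval, the 9 silent cells had 0 counts in 40964888, which allows up to 0.0714 CPM over the class, and expressing cells had a lowest, median and highest sum of 132, 1384.5 and 8641. Among all gene rows with counts in at least 1 expressing cell, 29.7% were at 0 in all silent cells, so a rarely seen RNA at 0 in 9 cells carries little weight. Of tested genes with counts in at least 17 expressing cells, 0.539% were at 0 in all silent cells (49 of 9086), and the 5 such genes of the interval besides Meg3 and Rian were all among them. They share the transcription unit or its strand pair with the genes that chose the cells, so this is a description and no separate result. The minimum of 17 equals the number of expressing cells with counts of Gm26945, the least often seen of these interval genes.

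The most often seen of them was Gm26906, a lincRNA annotated on the minus strand inside the span of Meg3 (109568628 to 109571723). It had counts in 0 silent and 37 expressing cells, with 0 CPM in every silent cell and a lowest, median and highest of 0, 11.05 and 81.7 CPM in expressing cells. Its mean in expressing cells was 197 times the limit of 3 counts over the summed silent cells. That limit covers counting error only and not the spread between cells, so the ratio does not bound the difference between the classes. Because the use of strand in counting is not given in the sources used here, reads of Meg3 and of Gm26906 cannot be told apart where they overlap.

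Mirg, the host RNA at the far end of the miRNA cluster (109729764 to 109749460), had counts in 0 silent and 18 expressing cells. Its expressing cells ran from 0 CPM over a median of 0 to a highest value of 143 CPM. Their mean was 138 times the same limit, which again leaves out the spread between cells. Mirg thus dropped out in most expressing cells too, and its absence from 1 cell says little by itself. Gm26945, a lincRNA inside Rian, had counts in 0 silent and 17 expressing cells (highest 134 CPM), and B830012L14Rik, a lincRNA between the snoRNAs and the miRNA cluster, in 0 silent and 12 expressing cells (highest 198 CPM). The snoRNA gene Gm23347 had counts in 0 silent and 22 expressing cells, with a highest value of 22.7 CPM.

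Of the 45 matched hairpin genes, 29 had counts in at least 1 expressing cell and 0 in any silent cell. Among all gene rows with counts in at least 1 expressing cell, 29.7% were at 0 in all silent cells. The hairpins lie in or opposite the unit of the genes that chose the cells, so this is a description. The most often seen was Mir3071, annotated on the minus strand, with counts in 0 silent and 10 expressing cells. Mir127, whose product lies antisense to Rtl1 and is known to target its mRNA, had counts in 0 silent and 7 expressing cells, with at most 39 counts in a cell. Mir3070b had counts in 0 silent and 7 expressing cells, and Mir411 and Mir300 in 0 silent and 6 expressing cells each. Their counts were small, and their seeds stand with the sequences above.

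**Figure D3:**
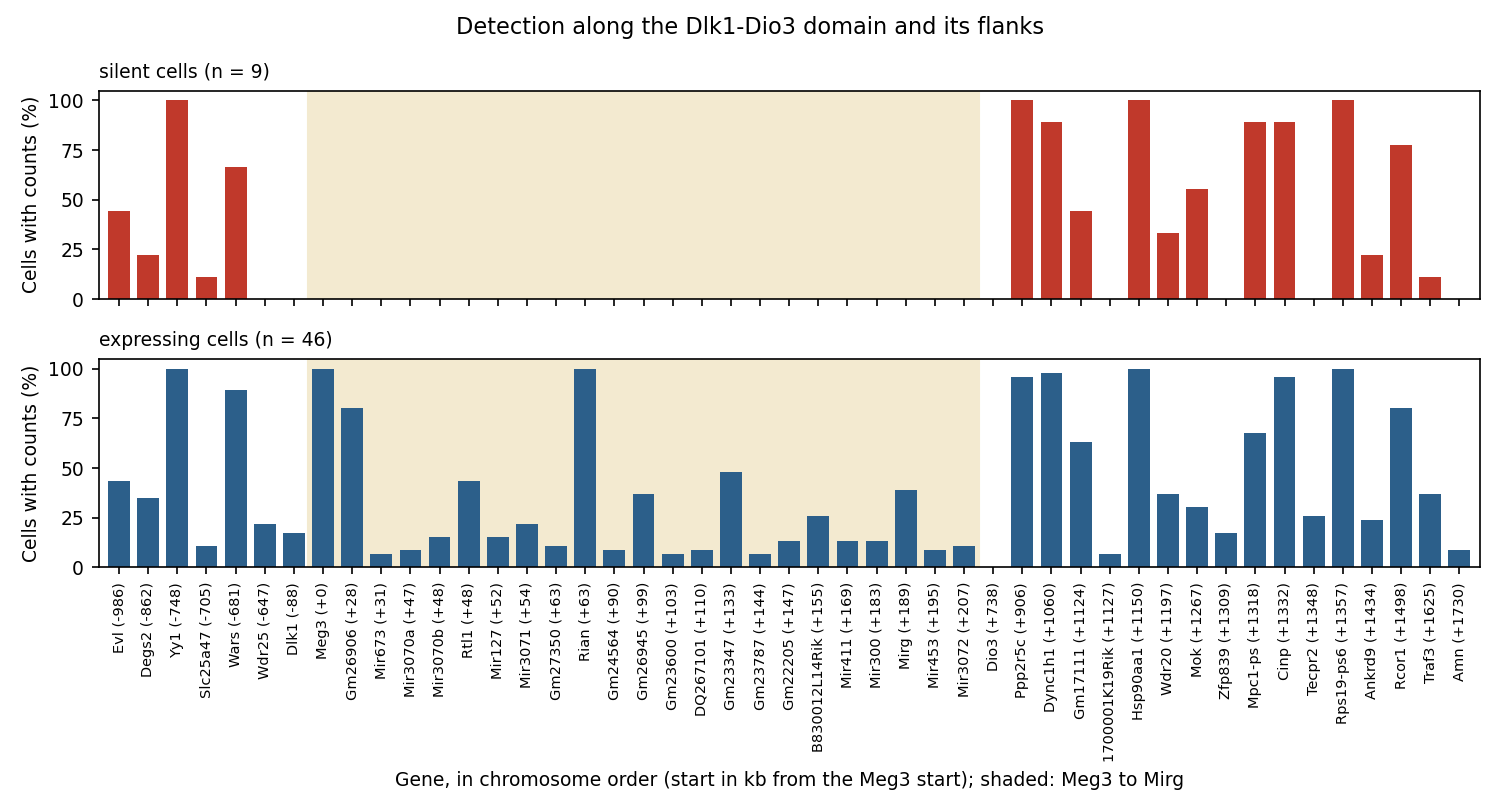
Share of silent cells (top, n = 9) and expressing cells (bottom, n = 46) with at least 1 count, for genes of the domain and its flanks with counts in at least 3 expressing cells, and Dio3. Genes stand in chromosome order with the distance of their start from that of Meg3 in kb; the shaded stretch from Meg3 to Mirg has no silent cell with counts, whereas Yy1 and Hsp90aa1 on either side have counts in all silent cells.

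Expressing cells differed widely among themselves along the same stretch. The number of interval rows with counts per expressing cell ran from 2 over a median of 6 to 17, and the ratio of Rian to Meg3 counts in a cell ran from 0.147 over 3.34 to 82.2. The ratio is not corrected for length and is given only to compare cells. Among the cells left out, with 1 to 402 counts over the interval, D07 had 12 counts of Mirg and 57 of Rtl1, and F02 had 35 of Mirg.

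**Figure D4:**
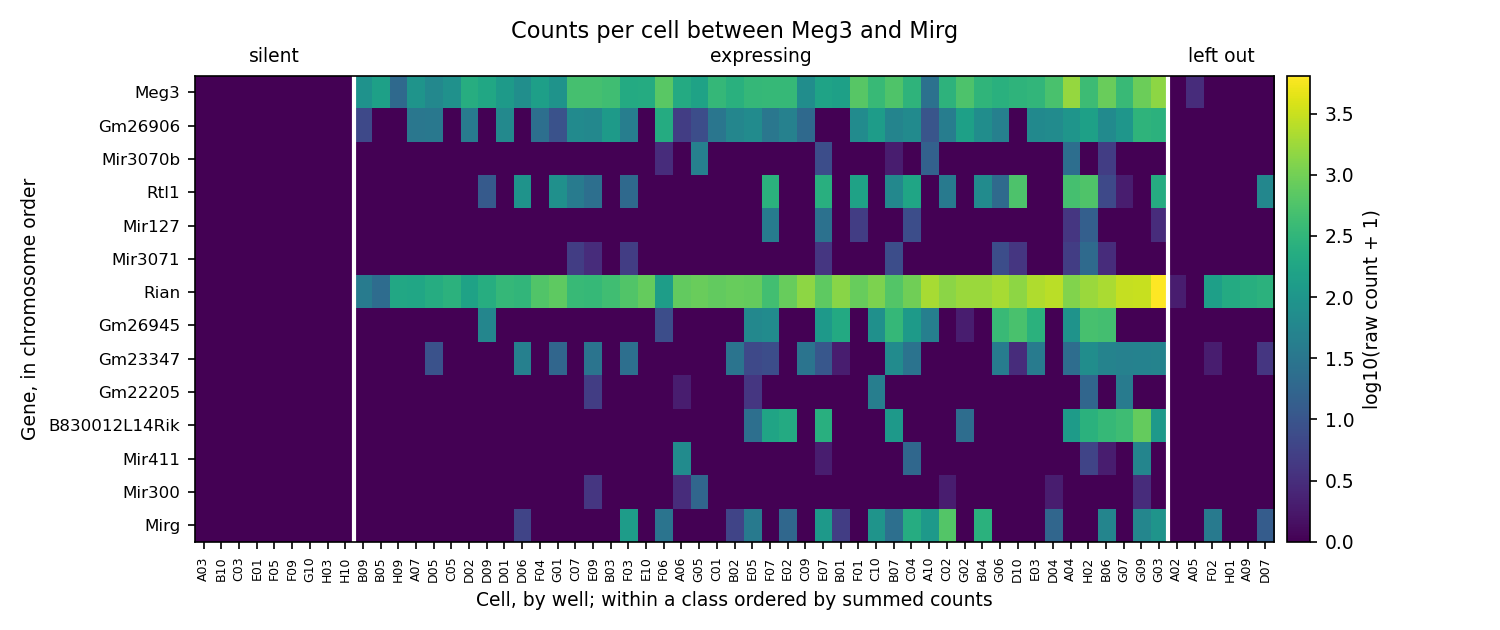
Raw counts, as log10(count + 1), of the 14 genes between Meg3 and Mirg with counts in at least 6 expressing cells (rows, in chromosome order) in silent, expressing and left-out cells (columns, by well). Silent cells are at 0 in every row; in expressing cells Meg3 and Rian are always present and the other rows are patchy.

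The genes known to be active on the paternal copy had no counts in silent cells. Dlk1, a transmembrane ligand of the Notch family that starts at -88.2 kb from the Meg3 start, had counts in 0 silent and 8 expressing cells, with at most 32 counts in a cell. Dio3, a thyroid hormone deiodinase gene, had no count in silent or expressing cells and 172 counts in the left-out cell A02. Rtl1, a gene derived from a retrotransposon, had counts in 0 silent and 20 expressing cells, with a highest value of 134 CPM. Rtl1 lies on the minus strand (109589193 to 109600330) opposite the maternal RNA, so its counts cannot be assigned to a strand or a parental copy. At these levels a difference in Dlk1 or Dio3 between the classes was not detectable.

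Most measured genes on both sides of the domain had counts in silent cells. Upstream, Yy1, a zinc-finger transcription factor gene, had counts in 9 silent and 46 expressing cells, with 1.31, 56.4 and 144 CPM (lowest, median and highest) in silent cells and a median of 55.004 and a highest value of 165 CPM in expressing cells. Its log2 fold change was -0.27 ± 0.49 (SE), or 0.34 in plate rows A to D alone, and did not pass the edgeR quasi-likelihood test (adjusted p = 0.999). The following detection counts were picked by position, outside the rule for named genes. Wars, a tryptophan tRNA synthetase gene, had counts in 6 silent and 41 expressing cells, and downstream Ppp2r5c, a phosphatase subunit gene, had them in 9 silent and 44 expressing cells, Dync1h1, a dynein heavy chain gene, in 8 silent and 45 expressing cells, and the chaperone gene Hsp90aa1 in 9 silent and 46 expressing cells. Of 22 flanking gene rows, from 1 Mb before Dlk1 to 1 Mb after Dio3 without the interval and these genes, that had counts in at least 3 expressing cells, 17 had counts in silent cells too. The other 5 (22.7%) were at 0 in all silent cells, against 13.2% of all gene rows at that minimum.

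These 5 rows were seen in 3 to 12 expressing cells. Tecpr2, an autophagy-linked gene 1348.3 kb from the Meg3 start, was the flanking gene with the smallest p: it had counts in 0 silent and 12 expressing cells, with a highest value of 84.0 CPM, and a log2 fold change of -6.59 ± 2.35 that did not pass (edgeR adjusted p = 0.311). A separate list of flanking genes reaches beyond this window and leaves out some of its rows. Over the 20 tested genes of that list the median log2 fold change was -0.24, against -0.14 over all tested genes, with 0 called in either direction.

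Most imprinted genes elsewhere had counts in silent cells. The list held 52 genes of the table, of which 45 had counts in at least 1 expressing cell, and 10 of these (22.2%) were at 0 in all silent cells, against 29.7% of all such gene rows. Of 25 with counts in at least 17 expressing cells, 0 were at 0 in all silent cells, which is near the 0.539% of all such tested genes. A silent cell had counts of 13, 24 and 29 of the 52 genes (lowest, median and highest), and an expressing cell of 17, 24 and 31. The examples that follow were chosen by their known role, outside the rule. Peg3, a paternally expressed zinc-finger gene, had counts in 7 silent and 42 expressing cells, with medians of 226 CPM in silent and 150 CPM in expressing cells. Grb10, a growth-restraining adaptor gene, had counts in 7 silent and 43 expressing cells, with medians of 229 CPM in silent and 254 CPM in expressing cells. Mest, a paternally expressed hydrolase gene, had counts in 6 silent and 40 expressing cells, with medians of 21.1 CPM in silent and 140 CPM in expressing cells. Impact and Gnas had counts in all cells of both classes. Of 32 tested members, 0 were called, 11 had a log2 fold change above 0 and 21 below, and the median was -0.30. The smallest p was that of Ddc, a decarboxylase gene next to Grb10, with counts in 2 silent and 16 expressing cells, highest values of 40.01 CPM in silent and 398 CPM in expressing cells and a log2 fold change of -6.00 ± 2.74 (edgeR adjusted p = 0.823).

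Across the genome the comparison gave almost no call. With detection in each cell as a covariate, edgeR's quasi-likelihood test called 1 of 10866 genes at an adjusted p under 0.05 (0.0092%), with 0 higher in silent cells and 1 lower, and 528 genes had an unadjusted p under 0.05 (4.86%). A gene with counts only in the 9 silent cells could not reach the filter's minimum of 10 cells, whereas a gene at 0 in all silent cells could. The count of 0 higher is thus limited by the filter. The call was Gm26906, with a log2 fold change of -9.09 ± 1.56 (adjusted p = 0.005), the RNA inside Meg3 described above. Meg3 chose the cells, and reads of both cannot be told apart where they overlap. The call is therefore a description and no separate result. On simulated data the same fit gave more false calls than the adjusted threshold allows. No gene outside the interval passed. The adjusted p of Gm26906 missed the threshold without the cells low in chromosome 14 (adjusted p = 0.155), without the cells above the naive gap (adjusted p = 0.453), against all other cells (adjusted p = 0.0522), in plate rows A to D (adjusted p = 0.605) or E to H (adjusted p = 0.0605) alone, or in limma-trend (adjusted p = 0.244). Its log2 fold change lay between -9.72 and -7.70 in the edgeR fits among these and was -3.10 in limma-trend.

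DESeq2 called 221 genes, all lower in silent cells (2.03% of those tested), of which 155 had 0 counts in every silent cell. It was run on the same filtered genes, so the same limit holds for the direction of its calls. Without a filter on low counts edgeR called 677 genes higher (3.24%) and 1880 lower (9%), 12.2% in all, of which 2230 had counts in fewer than 10 of the compared cells. The count of calls thus depended on the tool and on the filter; the cause was not tested. Genes with counts in all 55 compared cells, 1507 in number, had a median SE of 0.37, and 99.2% of them had a log2 fold change within 1 of 0. For all tested genes the median SE was 1.24, so a log2 change of 1 lies within 1 SE for a typical gene.

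The next 9 genes by p did not pass, and each has an edgeR adjusted p of 0.172. None lies on chromosome 12. Bbs5, Acot8, Snx21, Tmem87b and Adal lie on chromosome 2, and the place of these genes was not tested. Bbs5, a subunit of the ciliary BBSome, was at 0 CPM in all silent cells and had counts in 24 expressing cells, with a median of 1.67 and a highest value of 164 CPM (log2 fold change -10.23 ± 2.52). Acot8, a peroxisomal thioesterase gene, and Snx21, a sorting nexin gene that overlaps it on the other strand of chromosome 2, had counts in 0 silent cells and in 26 (Acot8) and 27 (Snx21) expressing cells. Their log2 fold changes were -9.90 ± 2.38 and -8.79 ± 2.09, and reads in their overlap cannot be told apart. Tmem87b, a membrane protein gene of the Golgi, was at 0 in silent cells and present in 27 expressing cells (-9.00 ± 2.23), Adal, an adenosine deaminase-like gene, in 24 (-8.84 ± 2.30), and Sertad1, a cell-cycle regulator gene, in 21 (-9.38 ± 2.45).

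Adnp2, a homeobox and zinc-finger gene, had counts in 1 silent and 28 expressing cells, with highest values of 0.207 CPM in silent and 125 CPM in expressing cells (-8.74 ± 2.13). Yipf2, a gene of vesicle transport, had counts in 3 silent and 40 expressing cells, with highest values of 2.69 CPM in silent and 285 CPM in expressing cells (-6.22 ± 1.52). Slc25a40, a mitochondrial carrier gene, had counts in 3 silent and 35 expressing cells, with highest values of 2.48 CPM in silent and 204 CPM in expressing cells (-6.77 ± 1.78). In all 9 genes the expressing cells ran down to 0 CPM, so the classes overlapped at 0. Of all tested genes, 187 were at 0 in every silent cell, and the number of genes detected was lower in some silent cells, as given above.

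Genes known to protect imprints or to act at the control region were measured in the same fit. Of 21 tested, 0 were called, 7 had a log2 fold change above 0 and 14 below, and the median was -0.17. H3f3a, which codes for the histone variant H3.3, had the smallest p, with medians of 429 CPM in silent and 515 CPM in expressing cells and a log2 fold change of -0.31 ± 0.20 (edgeR adjusted p = 0.999). Arid4b, a chromatin factor known to act with its paralog at imprinted loci, had medians of 31.9 CPM in silent and 120 CPM in expressing cells, means of 230 CPM in silent and 137 CPM in expressing cells and a log2 fold change of 0.84 ± 0.61 (edgeR adjusted p = 0.999).

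Zfp57, Trim28 and Dnmt1 were added for their role, outside the rule. Zfp57, the zinc-finger protein that binds methylated control regions, had counts in 8 silent and 36 expressing cells, with medians of 99.1 CPM in silent and 13.1 CPM in expressing cells and a log2 fold change of 1.58 ± 1.38, which was -1.51 in plate rows A to D alone. Its cofactor gene Trim28 had counts in all cells of both classes, with medians of 467 CPM in silent and 494 CPM in expressing cells and a log2 fold change of -0.24 ± 0.46, which was 0.25 in limma-trend and 0.064 in rows E to H alone. Dnmt1, the maintenance methyltransferase gene, had counts in 7 silent and 45 expressing cells, with medians of 88.5 CPM in silent and 128 CPM in expressing cells (-0.35 ± 0.81). Each had an edgeR adjusted p of 0.999, and the classes overlapped for each. Their SE leaves room for differences in either direction.

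Of 18 tested genes of the DNA methylation machinery, 0 were called, 7 were above 0 and 11 below, and the median log2 fold change was -0.31. Dnmt3a, the de novo methyltransferase gene that sets methylation at imprinted regions in germ cells, had counts in 5 silent and 37 expressing cells, with medians of 0.219 CPM in silent and 24.1 CPM in expressing cells (-2.06 ± 1.30, edgeR adjusted p = 0.999). Of 28 Polycomb genes 0 were called, with a median of -0.18; Rbbp4, a histone-binding subunit gene, had medians of 182 CPM in silent and 345 CPM in expressing cells (-0.75 ± 0.34, edgeR adjusted p = 0.823), and Pcgf6, of a variant complex, had medians of 73.1 CPM in silent and 63.4 CPM in expressing cells and means of 82.8 CPM in silent and 108 CPM in expressing cells (-0.90 ± 0.64, edgeR adjusted p = 0.999).

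Pluripotency and lineage lists gave no call either. With detection as a covariate, the 16 naive genes had a median log2 fold change of 0.00, with 8 above and 8 below 0. Their score, which carries no such covariate, averaged 0.52 ± 1.31 SD in silent and -0.0040 ± 0.94 SD in expressing cells, and the silent cells with the highest scores had the fewest genes detected, as given above. Zfp42 and Dppa3 are markers of the naive state, named here after their values were seen. Zfp42 averaged 505 CPM in silent and 212 CPM in expressing cells, but its median was 0.482 CPM in silent and 5.94 CPM in expressing cells. Dppa3 averaged 99.5 CPM in silent and 16.7 CPM in expressing cells, with a median of 0 CPM in both. Their log2 fold changes were -0.93 ± 2.16 for Zfp42 and 1.30 ± 1.86 for Dppa3 (edgeR adjusted p = 0.999 each). Those of the 16 naive genes ran from -3.96 to 1.58. The 20 general pluripotency genes had a median of -0.07. The 24 formative and primed genes had a median of -0.68, with 3 above 0 and 21 below; Car14, a carbonic anhydrase gene with the smallest p among them, had counts in 1 silent and 13 expressing cells (-6.52 ± 2.37, edgeR adjusted p = 0.327). The 6 mesendoderm genes had a median of 0.97, with 5 above 0; T, the brachyury gene, had counts in 6 silent and 28 expressing cells, with medians of 38.7 CPM in silent and 3.07 CPM in expressing cells (1.496 ± 1.25, edgeR adjusted p = 0.999). Medians of lists with few tested genes move with single members, and none of these members passed.

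The 12 tested germline genes, whose promoters are known to be silenced by methylation, had a median log2 fold change of -1.58, with 3 above 0 and 9 below, and 0 called. Stk31, a kinase-like gene of germ cells, had counts in 0 silent and 10 expressing cells (-9.46 ± 2.90, edgeR adjusted p = 0.172), and Sycp1, of the synaptonemal complex, in 1 silent and 12 expressing cells (-3.52 ± 1.90, edgeR adjusted p = 0.999). Among 18 glycolysis genes the median was -0.26; Ldha, lactate dehydrogenase, had medians of 2981 CPM in silent and 4103 CPM in expressing cells (-0.67 ± 0.29, edgeR adjusted p = 0.702), and Aldoa, an aldolase gene, had medians of 1329 CPM in silent and 1606 CPM in expressing cells (-0.40 ± 0.21, edgeR adjusted p = 0.999). Nr4a1, an immediate-early nuclear receptor gene, had counts in 3 silent and 23 expressing cells (-4.04 ± 2.00, edgeR adjusted p = 0.999), in a list of 14 genes with a median of -0.47. The 43 S-phase genes had a median of -0.19, the 54 G2/M genes -0.26, the 18 p53 pathway genes 0.13, the 29 nuclear respiratory chain genes 0.03 and the 11 mitochondrially encoded genes -0.11, each with 0 called.

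**Figure D5:**
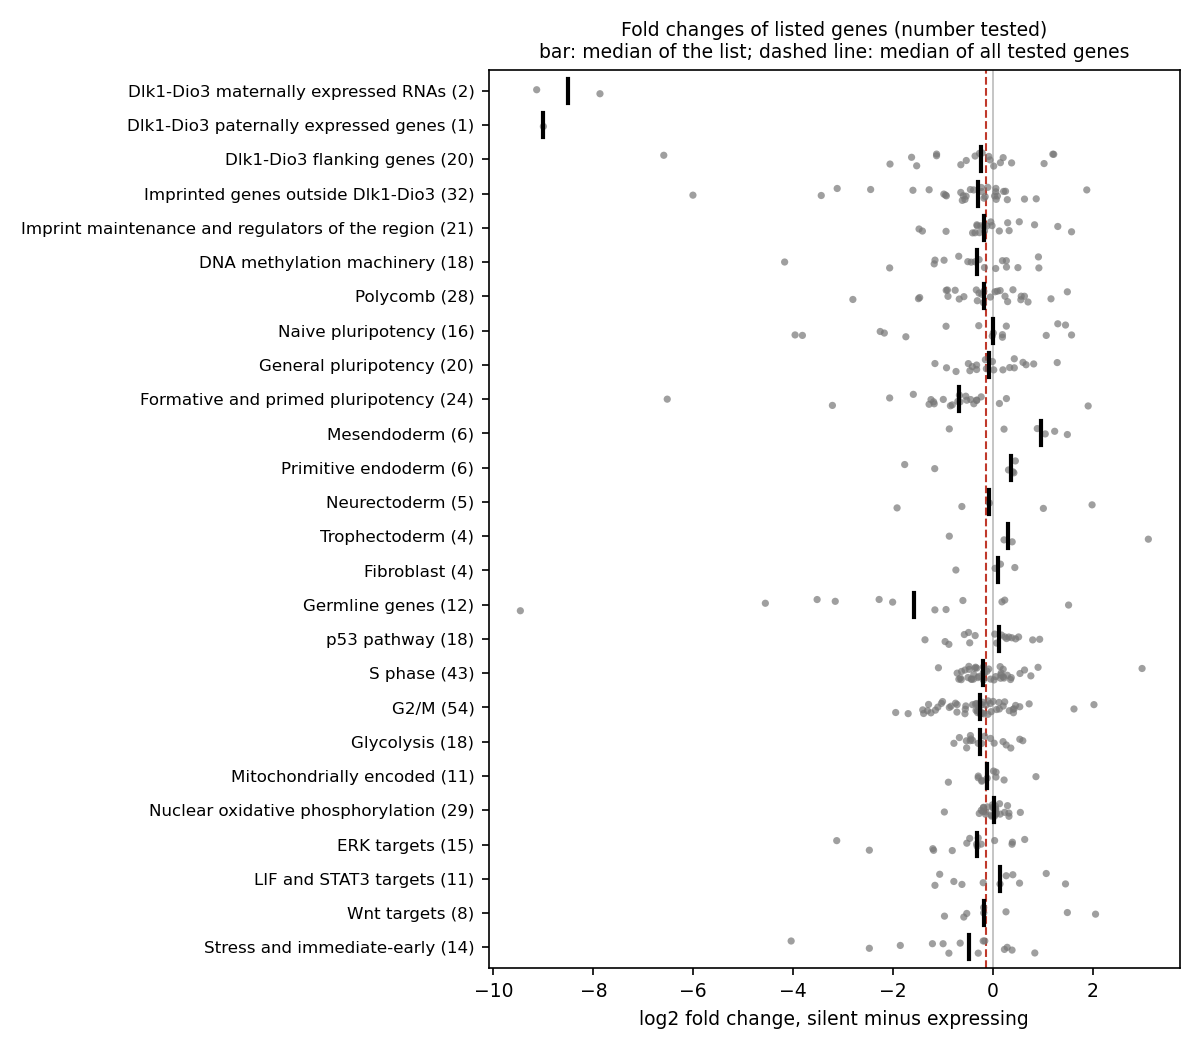
Log2 fold change, silent minus expressing, of each tested gene (points) in 26 gene lists (rows, with the number tested); black bars are list medians and the dashed line is the median of all 10866 tested genes, -0.14. Outside the 2 lists of the domain itself the medians lie between -1.58 and 0.97, and no listed gene outside the interval passed the threshold.

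Within the 46 expressing cells, the likeness of other genes to Meg3 and Rian was described by Spearman's rho of log2(CPM + 1) with the summed CPM of both, which does not use silent cells. Meg3 and Rian followed each other with rho = 0.354. Of 10866 genes the 2 highest values were those of Gm26906 (0.517) and Iqsec1 (0.517), an exchange factor gene for ARF GTPases. Cd24a, a cell-surface glycoprotein gene, had 0.507, Mapk8ip1, a scaffold gene of the JNK pathway, 0.494, B830012L14Rik 0.493, the gene 4933429H19Rik 0.491, Lpcat1, of phospholipid remodelling, 0.490, and Ginm1 0.476. Of these 8 genes 2 lie in the interval. Its other members followed less closely, with Gm26945 at 0.451, Gm23347 at 0.430, Mirg at 0.401 and Rtl1 at 0.269, which stood at place 427. Gm26906 lies inside the span of Meg3 and Gm26945 inside that of Rian. Reads cannot be told apart where these genes overlap, so their rho may rest on reads shared with the sum. The points share libraries, depth and detection, the genes were picked as the highest of many values, and no p is given. The lowest value, -0.646 for Mrps14, a mitochondrial ribosomal protein gene, was larger in size than any of the positive ones. With the share of detected genes regressed out, Gm26906 had 0.496 and stood at place 6, B830012L14Rik had 0.390 and stood at place 71, and Mrps14 had -0.587.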

How the data were processed

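RNA and DNA of each cell were parted by G&T-seq and cDNA libraries were made with Nextera XT, per the labels' protocols. The authors deposited a table of raw counts per gene, as whole numbers, and per the submitters' processing notes used GSNAP, SAMtools 0.1.18, bedtools 2.19.1 and DESeq2 on GRCm38. How reads were counted, and whether by strand, is not given in the sources used here, and counts of overlapping genes are uncertain. The deposited normalized table was not used here. Of 36300 rows, 95 name ERCC spike-ins, which took at most 8.47e-05% of a cell's counts and stayed out of library sizes and tests. Coordinates are from GENCODE M21 (GRCm38), which gave symbols for 34880 of 36205 identifiers; sequences are from RefSeq. Total counts per cell ran from 2417702 to 6787261.

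A gene was tested where 10 of 61 cells or more had at least 10 counts (10866 without Meg3 and Rian) with the quasi-likelihood test of edgeR 4.0.16, TMM scaling, the share of detected genes as covariate and Benjamini-Hochberg adjustment. Fold changes are silent over expressing, and the SE is approximated by the absolute log2 fold change divided by the square root of F. The fit was tested on simulated data, where it gave more false calls than the adjusted threshold allows. Library measures were compared by a two-sided permutation test with 100000 resamples. CPM are raw counts per 1000000 of the cell's total counts multiplied by its TMM factor, and limits of 3 counts are on the same scale; shares of chromosomes and mitochondria use raw totals. The cells, the gene lists and the rule for named genes were chosen with earlier results of these data known. As fewer than 5 genes passed, the rule named the 10 with the smallest p, genes of the domain with counts in at least 3 cells, at most 2 genes of each list by smallest p, and the 8 highest rho values; others are marked. The result for 1 gene that the rule named is not reported here. Alternatives were other tools (DESeq2 1.42.0, limma 3.58.1), scaling, filters, covariates, plate rows, cell sets, thinning and leaving out each silent cell. No set test was run.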

Additional observations from a re-analysis of the deposited data

Results flagged for a closer look

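In the 9 silent cells, 6 single values stood far from the rest of their class by Dixon's test, out of 26 groups of values tested; about 1 in 20 groups is flagged by chance where values are normally distributed. In 3 of these groups (Adnp2, Car14 and Sycp1) the other 8 cells were at 0, so any count in 1 cell stands apart by construction and that rate does not hold. Adnp2 had 0.207 CPM in 1 silent cell and 0 in the other 8. Car14 had 0.414 CPM and Sycp1 1.24 CPM in 1 silent cell each, with 0 in the other 8. Ddc had 40.01 CPM in its highest silent cell. The lowest silent value of Pcgf6 was 1.65 CPM and that of Aldoa was 324 CPM, each far below the other silent cells. What lies behind these values was not tested.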

How the results depend on the processing

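No paired analysis was possible because the replicate numbers only name cells in accession order. Of 10866 genes, edgeR called 1 (0 higher, 1 lower). Limma-trend called 0, with 0 lower and 531 at an unadjusted p under 0.05. DESeq2 called 221, all 221 lower, with 6 in the interval and 2 listed genes outside it. With no filter, 2557 were called (677 higher, 1880 lower), with 18 in the interval and 31 listed genes outside it. With 10 counts in 5 cells, 20 were called, 19 of them higher, with 1 listed gene outside the interval. These 19 were seen in 5 to 12 cells, and 0 of them were among the genes tested with the minimum of 10 cells. Rows A to D gave 3 calls (2 higher) and 0 in the interval. Rows E to H gave 6, all 6 higher, with 0 lower and 0 in the interval. Against all other cells, without cells low in chromosome 14 and without cells above the naive gap, edgeR called 0 genes, 0 lower and 0 in the interval. Leaving out each silent cell gave 1 to 2 genes called and 1 to 2 lower, 2 without G10. The difference in genes detected ran from -935 to -438 without 1 silent cell. That in mitochondrial share was -0.377 percentage points in rows A to D and ran from -0.0831 to 0.134 without 1 silent cell. That in chromosome 14 was 0.246 points in rows A to D. That in ERCC was -8.65e-06 points in rows A to D, -2.05e-08 against all other cells and -1.68e-06 to 1.71e-06 without 1 silent cell. B830012L14Rik had a rho of 0.390 after regression on detection. Of 33 named genes under 26 alternatives, 4 values turned round: Yy1 0.34 and Zfp57 -1.51 in rows A to D, and Trim28 0.25 in limma-trend and 0.064 in rows E to H. The cause was not tested. A class of 9 cells limits all of these comparisons, and most genes were at 0 in some cells of both classes.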
